A study of Ophiorrhiza pumila with 6 samples.

Results

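Loganin formation in *Ophiorrhiza pumila* was followed through 6 contigs of a *de novo* transcriptome assembly, 5 assigned to 7-deoxyloganic acid 7-hydroxylase (7-DLH) and 1 to loganic acid *O*-methyltransferase (LAMT). They were chosen by the enzyme assigned to them and not by a rule on their measured levels, though with earlier results of these data known. They are 6 of 40 pathway contigs with such an assignment and of 59855 contigs in all. RNA was sequenced from transgenic hairy roots (HR), fast-growing root cultures induced by *Agrobacterium rhizogenes*, at 3 weeks of age. Each HR line carried a hairpin RNAi construct, against the bacterial *β-glucuronidase* gene in the negative controls (GUSi, lines 9 and 10), against *OpERF1* (ERF1i, lines 7 and 19) or against *OpERF2* (ERF2i, lines 2 and 3). *OpERF1* and *OpERF2* encode AP2/ERF transcription factors, and the comparisons asked how suppression of either one altered transcripts of specialized metabolism. Each line was a single clone with 1 library, so that n = 2 lines for each construct and the replicate spread is the spread between transformation events. All 3 groups shared the transformation by *A. rhizogenes*, the vector backbone with its Cauliflower Mosaic Virus promoter and the culture conditions, and no untransformed root was measured. Values of a construct are given below in the order of its line numbers.

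Camptothecin, the anticancer alkaloid of *O. pumila*, is a monoterpene indole alkaloid and takes its terpenoid moiety from the iridoid secologanin. The cytochrome P450 7-DLH hydroxylates 7-deoxyloganic acid to loganic acid, and LAMT, a methyltransferase that uses *S*-adenosylmethionine, esterifies its carboxyl group to give loganin. In the iridoid pathway as known from *Catharanthus roseus*, secologanin synthase (SLS) then opens the ring of loganin, and strictosidine synthase (STR) joins secologanin to tryptamine, the product of tryptophan decarboxylase (TDC).

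The libraries held 11517610 to 13199946 expected counts. The *OpERF1* contig, c15284_g1_i1, stood at 206 and 134 FPKM (mapped fragments scaled to contig length and library size) in GUSi, at 3.46 and 18.9 FPKM in ERF1i, and at 698 and 584 FPKM in ERF2i. The *OpERF2* contig, c17706_g2_i1, stood at 15.2 and 8.33 FPKM in the GUSi lines, at 9.69 and 28.0 FPKM in the ERF1i lines, and at 3.29 and 14.8 FPKM in the libraries labelled ERF2i-2 and ERF2i-3, so that the last of these did not lie below the controls. Reads of a hairpin transcript cannot be told apart from those of the gene it targets in these tables. ERF2i-2 and ERF2i-3 therefore name libraries by their labels throughout, and each direction given for ERF2i rests on those labels. The sample titles number these 2 libraries the other way round from the names of the deposited tables, which leaves the ERF2i group as it is. A contig assigned to *rolB* of the bacterial T-DNA was found at 24.3 to 58.6 FPKM in all 6 libraries.

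The assembly annotation gave the 7-DLH description to 5 contigs, all of them included here, in 2 components. The component c18879 held 3 short contigs of 661, 699 and 689 bp, whose best database hits were 7-DLH-like proteins of *Cinchona calisaya* and *Tabernaemontana elegans*. The aligned stretches of c18879_g1_i1, c18879_g2_i1 and c18879_g3_i1 ran over 220, 108 and 196 residues with 95%, 96.3% and 90.8% of similar residues. Whether they are pieces of 1 transcript was not tested. The component c4068 held 2 variants of 1953 and 1954 bp, c4068_g1_i1 and c4068_g1_i2, both with 82.2% similarity over 517 residues to a 7-DLH-like protein of *Amsonia hubrichtii*. The LAMT contig, c5842_g1_i1, of 1469 bp, had *C. roseus* LAMT as its best hit, with 85.5% similarity over 358 residues, and was the only contig with a LAMT hit in the annotation.

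LAMT was the most abundant of the 6 contigs per length in every library, followed by the c18879 contigs and then by the c4068 variants. Across the 6 contigs, LAMT was higher in ERF1i and lower in ERF2i than in GUSi, one c18879 contig was lower in ERF2i, and both c4068 variants were lower in ERF2i than in ERF1i. These calls used the quasi-likelihood test of edgeR on the expected counts, with Benjamini-Hochberg adjustment over 33315 contigs that passed a filter on low counts. All 6 contigs passed it. In bulk HR RNA, fewer cells of a type and less RNA in each cell cannot be told apart.

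**Figure D1:**
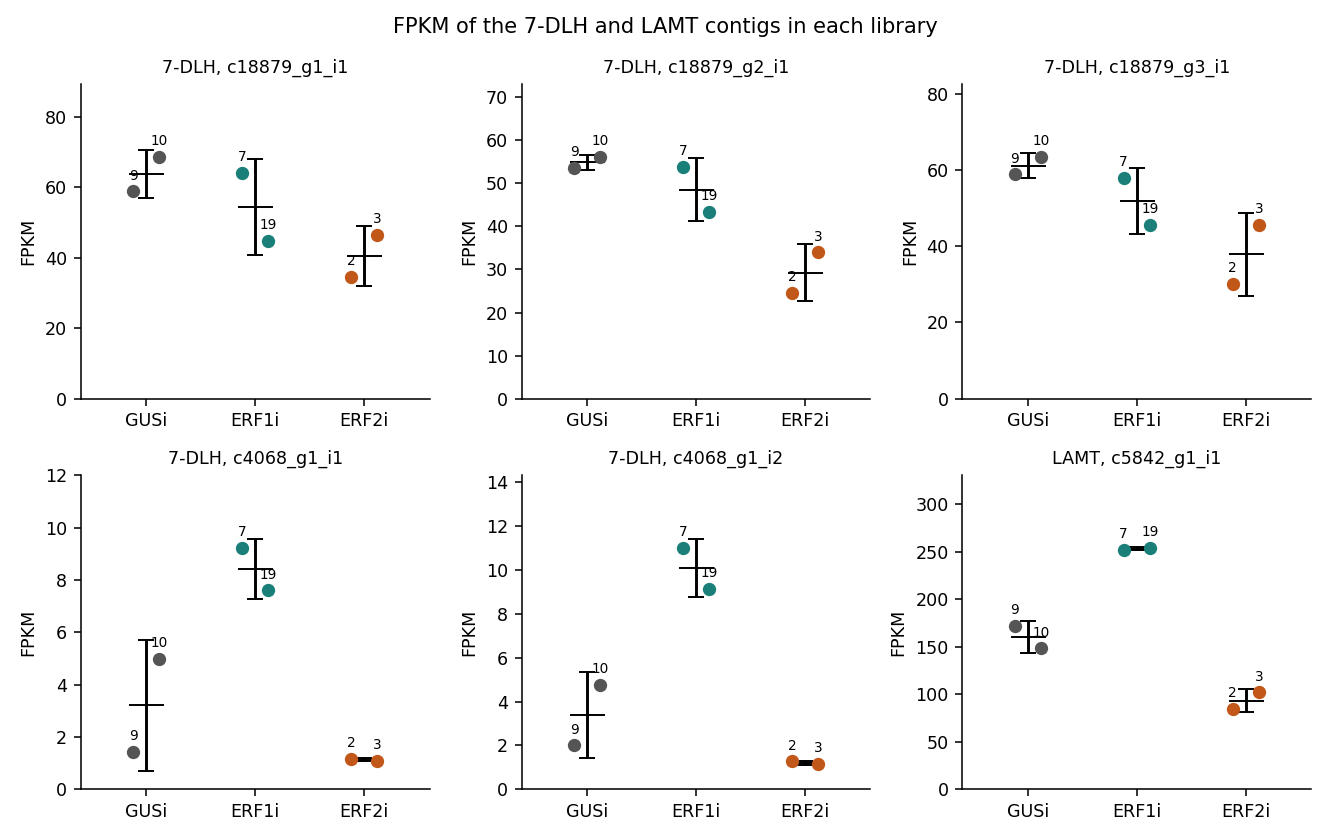
FPKM of each 7-DLH and LAMT contig (vertical axes, linear from 0, 1 scale for each panel) in the 3 groups. Points are libraries marked with their line number, long bars are group means and error bars are the SD of 2 lines. LAMT lay at 148 to 172 FPKM in GUSi, at 252 and 254 FPKM in ERF1i and at 84.8 and 102 FPKM in ERF2i.

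The c18879 contigs carried most of the 7-DLH signal. For c18879_g2_i1 the FPKM were 53.6 and 56.1 in the GUSi lines, 53.7 and 43.4 in the ERF1i lines and 24.6 and 33.97 in the ERF2i libraries. Both libraries labelled ERF2i were therefore below the other 4, whereas ERF1i-7 lay between the GUSi lines. This contig fell by 0.68 on the log2 scale in ERF2i against GUSi (1.60-fold lower, SE 0.19, adjusted p = 0.0396). That call was lost when either GUSi line or ERF2i-2 was left out (log2 -0.72, -0.64 and -0.47, adjusted p = 0.112, 0.151 and 0.214), and when the low-count filter was dropped (log2 -0.68, adjusted p = 0.0720). Against ERF1i its log2 difference was -0.57 (SE 0.19, adjusted p = 0.0735), and in ERF1i against GUSi it was -0.11 (SE 0.18, adjusted p = 0.787).

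The other c18879 contigs did not pass the test in any comparison. The FPKM of c18879_g1_i1 were 58.8 and 68.6 in the GUSi lines, 64.1 and 44.7 in the ERF1i lines and 34.5 and 46.4 in the ERF2i libraries. Both ERF2i libraries lay below both GUSi lines, but ERF1i-19 lay between the ERF2i libraries. The FPKM of c18879_g3_i1 were 58.8 and 63.4 in the GUSi lines, 57.9 and 45.6 in the ERF1i lines and 30.1 and 45.6 in the ERF2i libraries. ERF1i-19 and ERF2i-3 were nearly equal for this contig, at 45.63 and 45.57 FPKM, but as CPM, counts scaled to library size with the trimmed-mean (TMM) factors of the tests, ERF2i-3 was the higher, at 25.9 against 23.0 CPM. The log2 differences in ERF2i against GUSi were -0.43 for c18879_g1_i1 (SE 0.22, adjusted p = 0.20) and -0.46 for c18879_g3_i1 (SE 0.21, adjusted p = 0.161). In ERF1i against GUSi they were -0.16 and -0.17 (adjusted p = 0.737 and 0.707), and in ERF2i against ERF1i -0.27 and -0.29 (adjusted p = 0.422 and 0.371).

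The 3 c18879 contigs had similar levels per length. Within a library, the highest of them stood 1.05 to 1.41 times above the lowest in FPKM. The ratio of c18879_g2_i1 to c18879_g1_i1 in FPKM was 0.711 and 0.731 in ERF2i-2 and ERF2i-3, below its range of 0.818 to 0.969 in the other 4 libraries. Summed over the component, c18879 had 1130 and 1261 expected counts in the GUSi lines, 1155 and 834 in the ERF1i lines and 519 and 749 in the ERF2i libraries. These counts are not scaled to library size. On the scale of the tests, as CPM with TMM factors, the sums were 80.8 and 89.0 in the GUSi lines, 87.8 and 66.0 in the ERF1i lines and 50.2 and 71.2 in the ERF2i libraries. ERF2i-2 was the lowest, and ERF1i-19 lay between the ERF2i libraries. The summed component differed by -0.48 on the log2 scale in ERF2i against GUSi (SE 0.20, adjusted p = 0.125), by -0.34 in ERF2i against ERF1i (SE 0.20, adjusted p = 0.258) and by -0.14 in ERF1i against GUSi (SE 0.20, adjusted p = 0.728). None of these passed the test.

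The c4068 variants were rarer and spread far more widely. The FPKM of c4068_g1_i2 were 2.00 and 4.77 in the GUSi lines, 11.0 and 9.15 in the ERF1i lines and 1.27 and 1.15 in the ERF2i libraries. The FPKM of c4068_g1_i1 were 1.43 and 4.98 in the GUSi lines, 9.24 and 7.6 in the ERF1i lines, and 1.17 and 1.10 in the ERF2i libraries. For both variants the 3 groups did not overlap, with ERF1i highest and ERF2i lowest, and GUSi-9 came close to the ERF2i libraries. The GUSi lines differed from each other by 2.39-fold for c4068_g1_i2 and 3.48-fold for c4068_g1_i1, against 1.05- to 1.17-fold for the c18879 contigs and 1.16-fold for LAMT. Reads shared by the variants are divided between them by the quantification, so that the split between them is less certain than their sum.

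Between the 2 ERF constructs, c4068_g1_i2 fell by 2.90 on the log2 scale in ERF2i against ERF1i (7.44-fold lower, SE 0.40, adjusted p = 0.00498) and c4068_g1_i1 fell by 2.72 (6.60-fold lower, SE 0.53, adjusted p = 0.0161). Without ERF2i-2 or without ERF2i-3 the log2 differences stayed between -2.96 and -2.70 but the adjusted p were 0.0586 to 0.137. In ERF1i against GUSi, c4068_g1_i2 had a log2 difference of 1.64 (SE 0.35, adjusted p = 0.0517) and c4068_g1_i1 of 1.45 (SE 0.46, adjusted p = 0.135), neither past the threshold, although DESeq2 called c4068_g1_i2 (adjusted p = 0.00292). Those values depended on the control line. Without GUSi-10 they were 2.41 (adjusted p = 0.0347) and 2.62 (adjusted p = 0.0339), and without GUSi-9 they were 1.14 (adjusted p = 0.0946) and 0.82 (adjusted p = 0.174). In ERF2i against GUSi the log2 differences were -1.26 for c4068_g1_i2 (SE 0.43, adjusted p = 0.0757) and -1.27 for c4068_g1_i1 (SE 0.56, adjusted p = 0.148), and they ranged from -1.75 and -1.90 without GUSi-9 to -0.49 and -0.10 without GUSi-10 (adjusted p = 0.0113 and 0.00976, then 0.30 and 0.869). DESeq2 called c4068_g1_i2 here too (adjusted p = 0.0397).

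As a component, c4068 had 79 and 229 expected counts in the GUSi lines, 465 and 366 in the ERF1i lines and 50 and 47 in the ERF2i libraries. The exact 95% Poisson interval for GUSi-9, 62.545 to 98.5, overlapped that of ERF2i-2, 37.1 to 65.9. The interval of ERF2i-3 was 34.5 to 62.5 and that of GUSi-10 200.3 to 261. These intervals cover counting error only. They are on counts not scaled to library size, so small gaps or overlaps between libraries cannot be read from them. As CPM with TMM factors, c4068 stood at 5.65 and 16.2 in the GUSi lines. It stood at 35.3 and 29.0 CPM in the ERF1i lines and at 4.84 and 4.47 CPM in the ERF2i libraries. The summed component was 6.90-fold lower in ERF2i than in ERF1i (log2 -2.79, SE 0.47, adjusted p = 0.0118). Its log2 differences against GUSi were 1.56 in ERF1i (SE 0.43, adjusted p = 0.10) and -1.23 in ERF2i (SE 0.48, adjusted p = 0.110).

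The makeup of the 7-DLH signal also differed between lines. With the c4068 variants summed and the c18879 contigs averaged, c4068 made up 5.67% and 13.5% of 7-DLH FPKM in the GUSi lines, 25.7% and 27.3% in the ERF1i lines and 7.58% and 5.09% in the ERF2i libraries. The ERF1i lines were the highest, while the GUSi and ERF2i ranges overlapped. In FPKM, c18879 exceeded c4068 by 2.89- and 2.66-fold in the ERF1i lines and by 6.43- to 18.7-fold in the other 4 libraries.

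**Figure D2:**
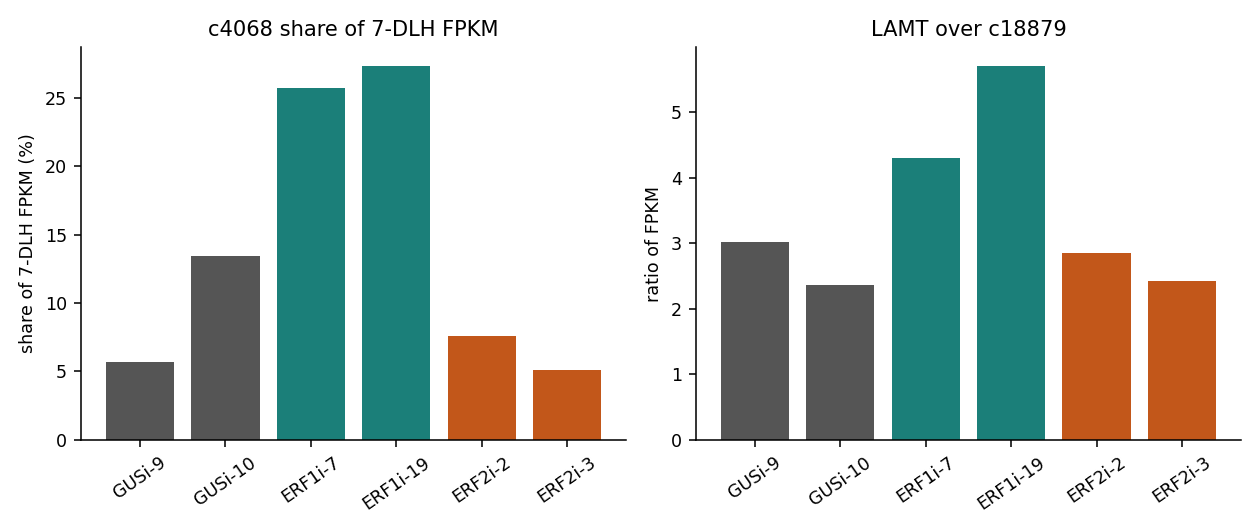
Left, share of the c4068 variants in the FPKM of 7-DLH (%), and right, ratio of LAMT to the mean of the 3 c18879 contigs in FPKM, with 1 bar for each library and both axes from 0. The ERF1i bars are the tallest in both, at 25.7% and 27.3% and at ratios of 4.30 and 5.71.

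LAMT differed between all 3 groups. Its FPKM were 172 and 148 in the GUSi lines, 252 and 254 in the ERF1i lines and 84.8 and 102 in the ERF2i libraries, and the underlying expected counts were 2887, 2539, 4212, 4045, 1263 and 1548 in the same order. The groups did not overlap, and the ERF1i lines were within 1.01-fold of each other. Group means were 160 ± 16.8 FPKM in GUSi, 253 ± 1.68 in ERF1i and 93.4 ± 12.2 in ERF2i (SD, n = 2).

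In ERF1i against GUSi, LAMT rose 1.66-fold (log2 0.73, SE 0.13, adjusted p = 0.0379). That call was held by 6 of 10 alternative settings and by 1 of 6 fits that each left out a library, the one without ERF1i-7. Without GUSi-10, GUSi-9 or ERF1i-19 the log2 differences were 0.63, 0.83 and 0.73 (adjusted p = 0.173, 0.113 and 0.0545). Without ERF2i-2 or ERF2i-3 they were both 0.72 (adjusted p = 0.0870 and 0.0878). LAMT was the 1 of 6 contigs called in this comparison, beside 4.06% of all contigs tested, or 2.65% called higher. The FPKM of ERF1i and GUSi did not overlap for 4 of the 6 contigs, 3 of them higher in ERF1i, against 52.2% of all contigs, or 20.0% higher. On the CPM scale, a scale added after seeing the data, it was 3 of 6, all higher in ERF1i, against 50.6% of all contigs in either direction. The share of all contigs that were higher was not counted on that scale.

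In ERF2i against GUSi, LAMT fell by 0.55 on the log2 scale (1.47-fold lower, SE 0.14, adjusted p = 0.0286). It was called in all 10 alternative settings, but lost the call without either GUSi line (log2 -0.45 and -0.65, adjusted p = 0.139 and 0.0596) or either ERF2i library (-0.43 and -0.72, adjusted p = 0.179 and 0.0536). LAMT and c18879_g2_i1 were the 2 of 6 contigs called, both lower, beside 23.1% of all contigs called and 9.88% called lower. All 6 contigs were lower in FPKM in both ERF2i libraries than in both GUSi lines, which held for 49.8% of all contigs tested. On the CPM scale it was again all 6, against 34.2%. Scaling mattered here, because without the trimmed-mean normalization the median of all contigs moved to -0.24 on the log2 scale in this comparison, and 28.6% in place of 57.2% of all calls were higher. The LAMT difference of -0.55 is relative to that median.

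In ERF2i against ERF1i, LAMT fell by 1.28 on the log2 scale (2.43-fold lower, SE 0.14, adjusted p = 0.00228) and was called in all 16 alternatives, including those that left out a library. With both c4068 variants it made up the 3 of 6 contigs called, all lower, beside 19.6% of all contigs called and 9.01% called lower. Contigs of 1 component may not be separate units, which limits each of these counts. With components summed, LAMT and c4068 were called here, and LAMT alone in each comparison with GUSi. The FPKM of 5 of the 6 contigs were lower in both ERF2i libraries than in both ERF1i lines, against 42.8% of all contigs. On the CPM scale it was 4 of 6, without c18879_g3_i1, against 31.7%. Both other comparisons share the GUSi lines as controls. The GUSi lines do not enter the fold change between ERF2i and ERF1i, but they enter its SE and p, since the spread was estimated over the 3 groups.

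**Figure D3:**
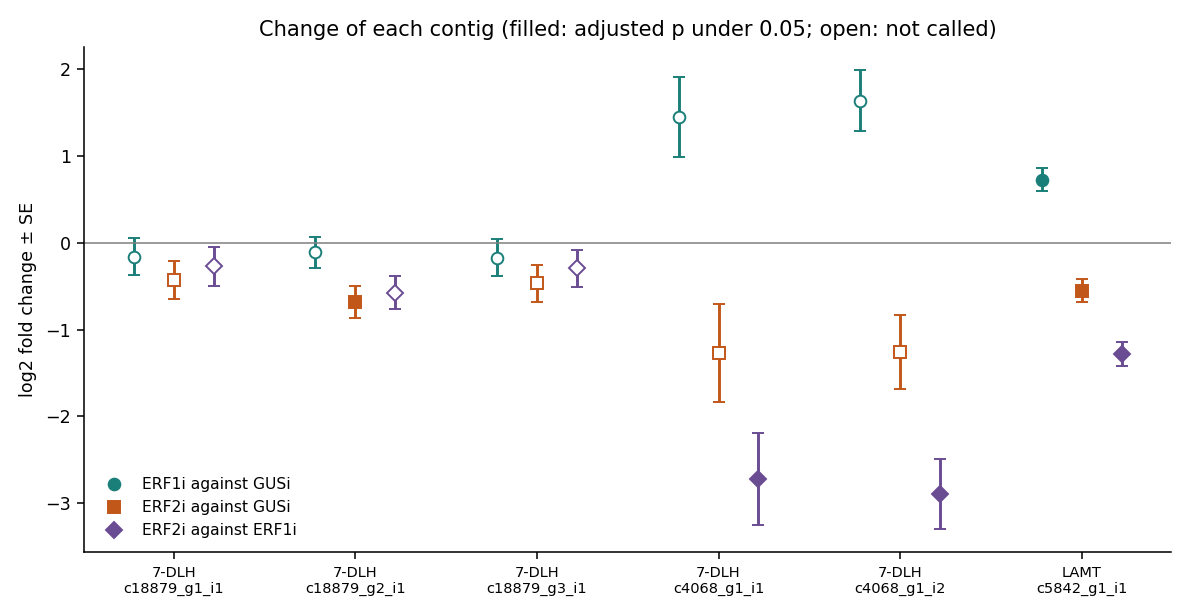
Log2 fold change from the edgeR fit with its SE (vertical axis) for each contig in the 3 comparisons. Filled symbols passed an adjusted p of 0.05 and open symbols did not; LAMT is filled in all 3 comparisons, at 0.73, -0.55 and -1.28.

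The ratio of LAMT to the c18879 contigs of 7-DLH shifted as well. It leaves out the c4068 variants, which made up 25.7% and 27.3% of 7-DLH FPKM in the ERF1i lines. LAMT exceeded the mean of the c18879 contigs in FPKM by 3.02- and 2.37-fold in GUSi, by 4.30- and 5.71-fold in ERF1i, and by 2.85- and 2.43-fold in ERF2i. The ratio was higher in both ERF1i lines than in any other library, and in the ERF2i libraries it lay within the range of GUSi.

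Each line was also set against the pooled GUSi lines, with a log2 difference of at least 1 required beside the adjusted p. A single line has no replicate, so these p-values rest on the spread between the GUSi lines, moderated over all contigs, and compare 1 library with the controls. The share of all contigs with an unadjusted p under 0.05 was not counted for single lines. The counts of the 6 at that threshold therefore cannot be set against it. No contig of the 6 passed in any line, where 0.807%, 3.17%, 9.52% and 7.07% of all contigs did in the ERF1i and then the ERF2i libraries, and 3, 4, 4 and 2 of the 6 had an unadjusted p under 0.05 in edgeR, the only tool run for single lines. Without the minimum difference, the adjusted p was under 0.05 in ERF2i-2 for LAMT (log2 -0.70, adjusted p = 0.0447), c18879_g2_i1 (-0.95, 0.0190) and c18879_g3_i1 (-0.81, 0.0289), beside 5.80% of all contigs called lower in that library. In ERF2i-3 the same contigs had log2 differences of -0.42, -0.46 and -0.19 (adjusted p = 0.158, 0.113 and 0.432). LAMT had a log2 difference of 0.73 in each ERF1i line (adjusted p = 0.107 and 0.0699).

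The neighbouring steps were read from the other 34 pathway contigs, all tested. In ERF1i against GUSi, 1 of the 34 rose and none fell, beside 2.65% of all contigs called higher. The median log2 difference of the 34 was 0.11, beside 0.31 for the 6 contigs and 0.00 for all contigs. The 6 were split, with the c18879 contigs at -0.17 to -0.11 and LAMT and the c4068 variants at 0.73 to 1.64. Their median describes none of them. The 1 that rose, c18473_g1_i1, was assigned to 7-deoxyloganetic acid glucosyltransferase (7-DLGT), the enzyme that supplies the substrate of 7-DLH, and rose 1.56-fold (log2 0.64, SE 0.13, adjusted p = 0.0472). At an unadjusted p under 0.05 in edgeR, 2 of the 5 7-DLGT contigs were higher and 2 lower. The lower ones were c22992_g2_i1 and c22992_g3_i1, at -0.76 and -0.66 (adjusted p = 0.0594 and 0.139). With library totals as the only scaling, none of the 34 rose and 1 fell. The count of 1 became 3 without ERF1i-19 and 0 without any other single library. In the order of all 40 contigs, c4068_g1_i2 and c4068_g1_i1 had the highest values and LAMT the 4th highest.

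In ERF2i against GUSi, 8 of the 34 fell and none rose, with a median of -0.32 against -0.62 for the 6 contigs and -0.01 for all contigs. The 8 became 3 without GUSi-9, 5 without GUSi-10, 1 without ERF2i-2 and 5 without ERF2i-3. Of the 5 7-DLGT contigs 4 fell. Among these c22992_g2_i1, c22992_g3_i1 and c38432_g1_i1 gave log2 differences of -1.36, -1.54 and -1.78 (adjusted p = 0.00328, 0.00532 and 0.0222). Downstream of LAMT, the SLS contig c27549_g2_i1 fell by 1.59 (adjusted p = 0.0173) and the STR contig c34166_g1_i1 by 1.12 (adjusted p = 0.0230). The more abundant SLS and STR contigs, c41889_g1_i1 and c47430_g1_i1, stood at -0.45 and -0.69 and were not called (adjusted p = 0.122 and 0.0547). Upstream, c33486_g7_i1, for the plastidial isoprenoid enzyme DXR, fell by 1.04 (adjusted p = 0.00357). The other DXR contigs, c33486_g6_i1 and c33486_g6_i2, stood at 0.18 and 0.14 and were not called (adjusted p = 0.288 and 0.409). None of the 10 early iridoid contigs passed in either comparison with GUSi, by edgeR or DESeq2, and 1 and 0 of them had an unadjusted p under 0.05 in ERF1i and ERF2i. In ERF2i against ERF1i, 12 of the 34 fell and none rose (median -0.51 against -0.93 for the 6), with c27549_g2_i1 at -2.21 and the TDC contig c28893_g1_i1 at -1.79 (adjusted p = 0.00687 and 0.0176). The most abundant SLS and TDC contigs, c41889_g1_i1 and c28648_g1_i1, were not called there (-0.48 and -0.29, adjusted p = 0.113 and 0.516). The 12 became 0 by edgeR without ERF2i-2, where 12 had an unadjusted p under 0.05, and 5 without ERF2i-3. The c4068 variants had the lowest values of all 40 contigs in that comparison and LAMT the 7th lowest.

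**Figure D4:**
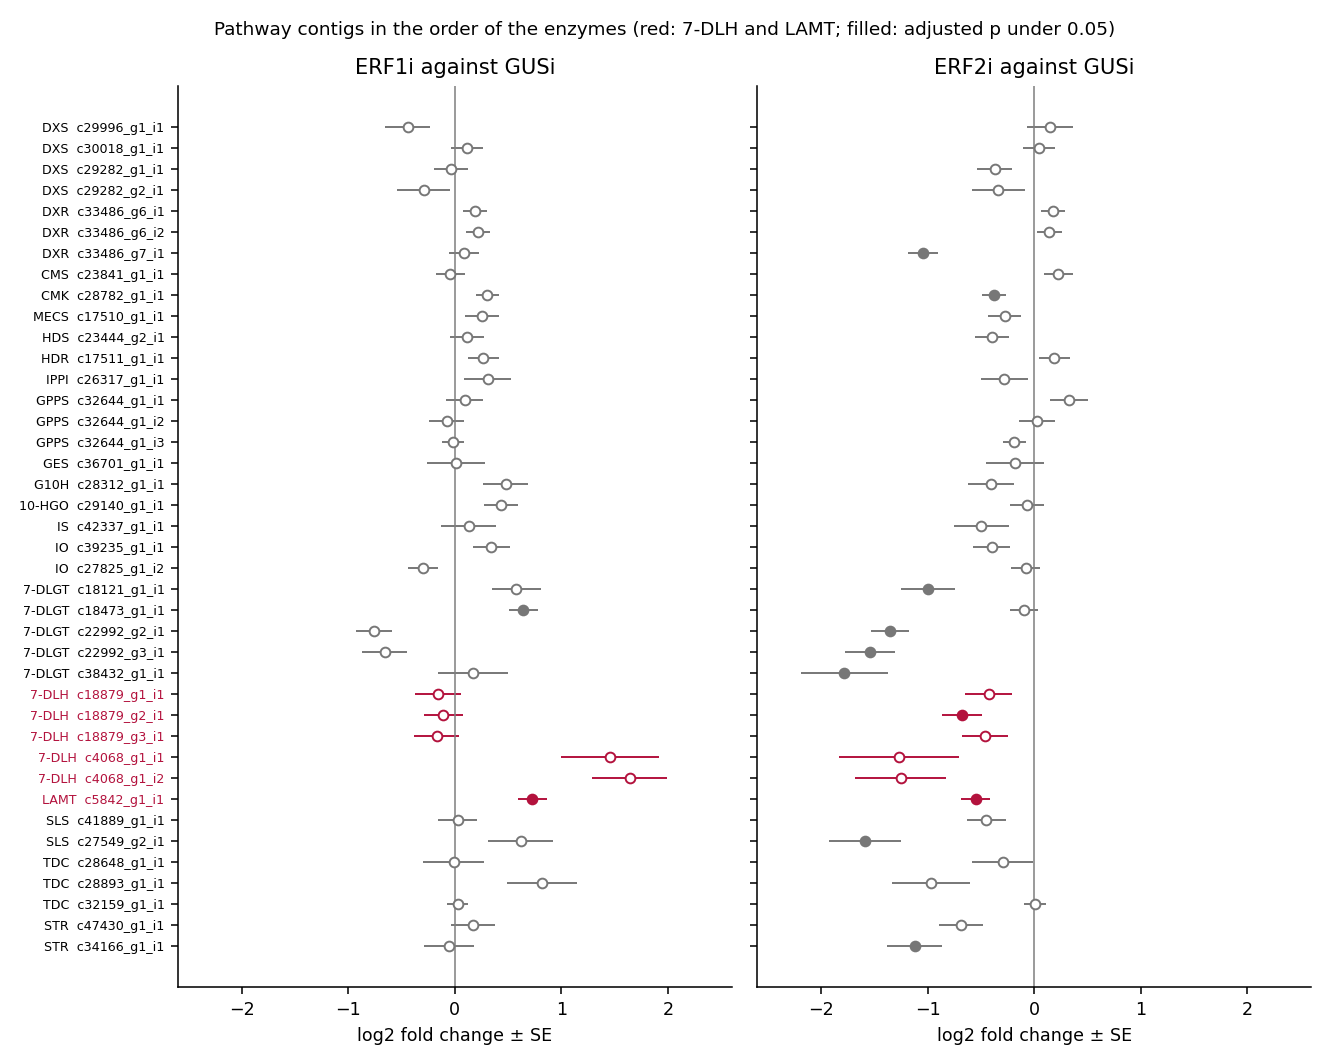
Log2 fold change with SE (horizontal axes) of the 40 pathway contigs in the order of the enzymes, for ERF1i and ERF2i against the same GUSi lines. The 7-DLH and LAMT contigs are in red and filled points passed an adjusted p of 0.05; beside LAMT, 1 contig is filled on the left, and 10 are filled on the right, 2 of them red.

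The annotation families of both enzymes were read in the same fits. CYP72A is the cytochrome P450 subfamily that holds SLS and its relatives. Among 12 tested contigs whose annotation names CYP72A, 2 fell in ERF1i against GUSi, and 4 rose and none fell in ERF2i. Over all 33315 contigs, 468 fell in ERF1i, and 4393 rose and 3293 fell in ERF2i. The 12 differences in ERF2i were 6 positive and 6 negative (median log2 0.07). At an unadjusted p under 0.05, 5 of them were higher and 3 lower. The contig c31085_g2_i1, annotated as SLS-like, fell by 0.91 in ERF1i (adjusted p = 0.0307) and rose by 1.20 in ERF2i (adjusted p = 0.00220) on the log2 scale, and its variant c31085_g2_i2 fell by 0.90 (adjusted p = 0.0480) and rose by 1.33 (adjusted p = 0.00349). These are the opposite signs to LAMT. The CYP72A contig c32840_g1_i1, with a triterpene oxidase description, rose by 1.05 in ERF2i (adjusted p = 0.00750). Among 8 other tested contigs of the carboxyl methyltransferase family of LAMT, none passed in either comparison with GUSi by edgeR. At an unadjusted p under 0.05 there were 3 and 1, and DESeq2 called 0 and 1. In ERF2i against ERF1i, 1 of them fell, c26741_g1_i1, annotated as xanthosine methyltransferase (log2 -1.16, adjusted p = 0.0202).

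Annotations that name loganin or secologanin covered a further 45 tested contigs, of which 1 rose and 2 fell in ERF1i and 4 rose and 9 fell in ERF2i against GUSi. Those that rose in ERF2i included the SLS-annotated contigs c32866_g1_i1 and c32840_g2_i1 (log2 1.20 and 1.21, adjusted p = 0.00312 and 0.00799), the second being abundant at 645 and 636 FPKM in ERF2i against 395 and 251 FPKM in GUSi. Those that fell included c22992_g1_i1, c31777_g3_i1 and c31085_g1_i1 (log2 -1.66, -0.95 and -1.40, adjusted p = 0.0110, 0.0162 and 0.0285). In ERF2i against ERF1i, c27549_g1_i1, another SLS-like contig, fell by 2.19 (adjusted p = 0.0361).

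The contigs with the nearest pattern were sought by the root mean square distance of centred log2 CPM over the 6 libraries, among 18841 described contigs with a mean of at least 5 CPM. Nearest to LAMT were a phytochrome kinase substrate-related contig, c27584_g1_i1 (distance 0.075), and a transparent testa 12-like contig, c30495_g2_i1 (0.077), followed by c32918_g2_i2 with a BNR/Asp-box repeat, the serine carboxypeptidase S10 contig c44750_g1_i1 and the receptor-like kinase contig c32066_g2_i2. Nearest to summed c18879 were an uncharacterized contig, c5796_g1_i1 (0.036), and a long-chain-alcohol fatty acyltransferase-like contig, c30661_g1_i1 (0.050), then c39252_g1_i1 (cation transport), c22473_g1_i1 (wall-associated kinase-like) and c27273_g3_i2 (uncharacterized). For summed c4068 the nearest, a chitinase contig, c27876_g1_i1, stood at 0.345, ahead of the carboxylesterase-like c24109_g4_i1, the xyloglucan galactosyltransferase c28568_g1_i1, the laccase c30147_g1_i2 and the auxin-induced c30328_g2_i1. No pathway contig was among the 5 nearest to any of the 3 patterns. From LAMT, the early iridoid contigs c28312_g1_i1 and c39235_g1_i1 ranked 77th and 180th of the 18841. The plastidial isoprenoid contig c28782_g1_i1 ranked 210th, 7-DLGT c18473_g1_i1 and c18121_g1_i1 237th and 317th, and STR c47430_g1_i1 369th. From c18879, the plastidial isoprenoid contig c29282_g1_i1 ranked 31st. From c4068, SLS c27549_g2_i1, TDC c28893_g1_i1, 7-DLGT c18121_g1_i1 and LAMT ranked 120th, 131st, 153rd and 202nd.

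Summed levels of 3 other transcript classes were set beside these values. The summed FPKM of the photosynthesis-annotated contigs, of which 46 to 50 were at 0 in each library and 37 were tested, was 358 and 443 in the ERF1i lines, 201 to 227 in the GUSi lines and 178 and 239 in ERF2i, so that ERF1i was highest, as for LAMT and c4068, while GUSi and ERF2i overlapped. The summed FPKM of 7 contigs of T-DNA genes was 258 and 432 in ERF1i, 1064 and 1901 in GUSi and 2380 and 1455 in ERF2i, with 1 contig at 0 in 5 libraries and 3 in ERF1i-19, so that ERF1i was lowest and the other groups overlapped. In ERF1i nearly all of the sum came from *rolB* (31.4 and 24.3 FPKM) and a cytokinin beta-glucosidase contig, c36680_g1_i1 (226 and 408 FPKM). The remaining T-DNA contigs were close to absent there. Of 6 tested T-DNA contigs, 4 fell in ERF1i against GUSi (median log2 -9.31), beside 468 of all 33315 contigs. Of 25 endodermis and root hair contigs, at most 1 was at 0 in a library, and their sum ranged from 273 to 380 FPKM in ERF1i, 305 to 354 in GUSi and 283 to 316 in ERF2i, with all 3 groups overlapping. The part of these classes in the values of LAMT and 7-DLH was not tested.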

How the data were processed

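Strand-specific libraries of oligo(dT)-selected RNA from 6 HR lines were used, grouped by sample title. The authors aligned the reads with Bowtie2 2.0 to their *de novo* assembly and quantified contigs with RSEM. The deposited tables give 59855 contigs, with the expected count, the FPKM and the percent of each assembly gene taken by each variant. The deposited annotation table repeats the FPKM (equal within 0.005), with the ERF2i columns exchanged relative to the titles, and also gives alignment lengths and similarity in percent. Its description text served for the lists.

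Expected counts were rounded and fitted in edgeR 4.0.16 (R 4.3.3) with trimmed-mean (TMM) factors of 0.909 to 1.08, filterByExpr (minimum count 10, total 15), 1 model of 3 groups with 3 residual degrees of freedom and a quasi-likelihood test. The common biological coefficient of variation of the fit was 14.7%, and that of the 6 contigs 12.3% to 33.2%. A contig was called at an adjusted p under 0.05 over 33315 contigs. A second fit set each line against pooled GUSi. DESeq2 1.42.0, limma 3.58.1 on log2(FPKM + 1) or log2(FPKM + 0.1), other scalings and filters, sums over assembly genes and components, and fits leaving out each library were alternatives. Since lines have 1 library each, p-values measure the spread between lines.

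Contigs outside the 6 were named as follows: up to 6 called pathway contigs a comparison (lowest p first), up to 3 called contigs from each family list, called contigs annotated with loganin or secologanin, and the 5 nearest patterns. Exceptions chosen after their values were seen are the order of the pathway contigs and the ranks of pathway contigs, LAMT included, from the 3 patterns. The contigs and lists were chosen with earlier results of these data known. No contig sequence was used here.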

Additional observations from a re-analysis of the deposited data

How the results depend on the processing

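No paired analysis was possible because the line numbers of the 3 constructs do not recur between groups. In the main fit of ERF1i against GUSi, 3 of the 6 contigs were higher and 0 lower at an unadjusted p under 0.05. Of all 33315 contigs, 3817 were higher and 3046 lower at that threshold. These numbers over all contigs were not counted in the alternatives. Of the 6 contigs, the 1 called in ERF1i against GUSi became 2 with DESeq2, and 0 with no low-count filter, with only the 2 groups fitted or with limma at either pseudocount (3 at an unadjusted p under 0.05 in each), and 0 to 2 with a library left out. The 2 called in ERF2i against GUSi became 4 with library totals as the only scaling, 1 with no low-count filter, 1 with components summed and 0 to 2 with a library left out. The 3 called in ERF2i against ERF1i became 1 to 4 with a library left out. For single lines the 0 contigs in ERF2i-2 became 3 without the minimum fold change.

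Of the 34 other pathway contigs, the 1 called in ERF1i against GUSi became 1 that fell with library totals only, 0 in the same settings without a filter, with 2 groups and with limma, 0 with components summed, and 0 to 3 with a library left out. The 8 in ERF2i against GUSi became 16 with library totals only, 14 with limma at either pseudocount and 1 to 11 with a library left out, and the 12 in ERF2i against ERF1i became 0 to 12. Differences near 0 changed sign: c18879_g1_i1 and c18879_g2_i1 in ERF1i against GUSi ran from -0.46 and -0.29 to 0.083 and 0.045 with a library left out (highest without ERF1i-19), and c18879_g1_i1 in ERF2i against ERF1i from -0.52 to 0.016 (highest without ERF1i-7). The cause was not tested. Library totals as the only scaling moved the median of all contigs to -0.07, -0.24 and -0.17 in the 3 comparisons and lowered the share of calls that were higher from 65.4%, 57.2% and 54.1% to 53.5%, 28.6% and 31.9%. The c4068 component had 47 to 465 counts a library, and its GUSi lines, at 79 and 229 counts, differed beyond their counting intervals.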

Other observations

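The contigs of each enzyme around loganin formation were set side by side by their mean level in GUSi and their log2 difference in ERF2i against GUSi, as a description chosen after the values were seen. For 7-DLH, the c4068 variants (3.21 and 3.39 FPKM) stood at -1.27 and -1.26, and the c18879 contigs (54.8 to 63.7 FPKM) at -0.68 to -0.43. For SLS, c27549_g2_i1 (25.7 FPKM) stood at -1.59 and c41889_g1_i1 (596 FPKM) at -0.45, and for STR, c34166_g1_i1 (15.1 FPKM) stood at -1.12 and c47430_g1_i1 (661 FPKM) at -0.69. In these 3 enzymes the rarer contigs had the lower values, and in TDC and 7-DLGT the order of the levels was not that of the differences. For 7-DLH that order depended on GUSi-10, and the c4068 differences were not called. Without GUSi-10, c4068_g1_i1 and c4068_g1_i2 stood at -0.10 and -0.49. The contigs c18879_g1_i1, c18879_g2_i1 and c18879_g3_i1 then stood at -0.31, -0.64 and -0.41. For TDC, c28893_g1_i1 (8.74 FPKM), c32159_g1_i1 (30.1 FPKM) and c28648_g1_i1 (540 FPKM) stood at -0.97, 0.0088 and -0.30. For 7-DLGT, c18121_g1_i1 (10.9 FPKM) and c38432_g1_i1 (11.5 FPKM) stood at -0.998 and -1.78, c22992_g2_i1 and c22992_g3_i1 (20.1 and 21.5 FPKM) at -1.36 and -1.54, and c18473_g1_i1 (27.5 FPKM) at -0.09. Differences between contigs were not tested.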
